A study of Anolis sagrei with 15 samples.

Results

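The EphB receptors and ephrin-B ligands are the B class of the Eph family, and the gene models that carry their symbols were followed over 3 regions of the embryonic eye of the brown anole, *Anolis sagrei*. The members were taken by symbol alone (EPHB1 to EPHB4 and EFNB1 to EFNB3, every gene model of a repeated symbol kept). The symbols were chosen with earlier results of these data known. All 7 symbols were found, on 11 of the 20235 gene models in the count table, 6 for receptors and 5 for ligands. RNA-seq libraries were made from the posterior globe, the back of the eye with the retina, at Sanger stage 16.5, with 5 libraries each for the central, nasal and temporal regions (15 in all). The embryos were of mixed sex and came from wild-caught anoles of Florida, tissue of 3 embryos was pooled, and no treatment or genotype separates the groups. The regions differ along the nasal-temporal axis, and no dorsal or ventral sample was taken. Nothing states that the replicates of a region came from separate pools of animals, so the p-values measure the spread between these libraries, which may be in part technical.

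Eph receptors are receptor tyrosine kinases that bind ephrins on the surface of a neighbouring cell. Ephrin-B ligands cross the membrane, so that binding signals forward into the receptor's cell and in reverse into the ligand's cell. In the retina of chick and mouse, EphB2 and EphB3 are highest ventrally and ephrin-B1 and ephrin-B2 dorsally, and the class is known for the mapping of retinal axons along that axis. In mouse, EphB1 guides the ganglion cell axons that do not cross at the optic chiasm, ephrin-B3 lies at the midline of the spinal cord, and EphB4 and ephrin-B2 mark venous and arterial endothelium.

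The libraries held 15177438 to 27035312 counted reads. Levels are given as CPM, counts per 1000000 counted reads after TMM scaling, and are not divided by length, so they are compared between regions and not between genes. Replicate 4 of the central region stood apart, with 14994 gene models listed against 17491 to 18617 in the other 14 libraries. Results of members that turn on it are given with and without it. Markers of retinal cells were present in every region, with mean ISL1, a factor of ganglion cells and other retinal neurons, at 159.8, 278 and 172 CPM in the central, nasal and temporal regions. Markers of other tissues were present too, and summed over the list and taken across all libraries they ranged from 1732 to 2929 CPM for pigment epithelium, 139 to 646 for cartilage and sclera, 193 to 363 for endothelium and 47.3 to 199 for mural cells and mesenchyme. The KDR model ANOSAT012859 alone held a mean of 134, 134 and 126 CPM in the central, nasal and temporal regions. The whole endothelial list had mean sums of 270, 225 and 244 CPM. Because whole tissue was sequenced, fewer cells of a type and less RNA per cell cannot be told apart.

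EPHB2 was listed as 3 gene models, EFNB1 and EFNB3 as 2 each, and the other symbols as 1. The paired models ANOSAT021186 and ANOSAT021187 of EPHB2, ANOSAT019172 and ANOSAT019173 of EFNB1, and ANOSAT013569 and ANOSAT013570 of EFNB3 have consecutive numbers. The numbers follow the order of genes, since 86.8% of 12351 consecutive pairs lay on the same chromosome of the RefSeq assembly rAnoSag1, against 10.7% for an unordered list. The consecutive models may therefore be pieces of the same gene between which reads were split. For ANOSAT021186, 5 of its 9 flanking gene models had a RefSeq counterpart within 10 genes of the RefSeq gene EPHB2, C1QA, C1QB and C1QC among them. For the third model, ANOSAT004086, the flanking models included KEL, TRPV5 and TRPV6, and none of the 4 that could be matched was on the chromosome of the RefSeq gene EPHB2. Whether ANOSAT004086 is an EPHB2 gene or another Eph receptor was not settled. It could be EPHB6, a symbol that was not found in the table, and this was not tested. The models are described apart under the symbol that the table gives. Every other member had 3 to 10 flanking models near the RefSeq gene of its symbol.

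The 2 consecutive EPHB2 models, with ANOSAT021186 the more abundant, were higher in the nasal than in the central region. EphB2 is a receptor that also signals in excitatory synapses in mouse. In the 5 central libraries ANOSAT021186 was at 84.6, 69.4, 87.8, 53.0 and 61.6 CPM, in the nasal libraries at 161, 111, 131, 107 and 106 CPM, and in the temporal libraries at 96.5, 103, 91.2, 70.5 and 85.4 CPM. Every nasal library lay above every central and every temporal library, while the central and temporal libraries overlapped. From the central to the nasal region ANOSAT021186 rose by 0.79 on the log2 scale (SE 0.150), 1.72-fold, with an adjusted p of 0.000978 (edgeR, quasi-likelihood test, adjusted after Benjamini and Hochberg over all 15910 gene models tested). From the nasal to the temporal region the difference was -0.46 (SE 0.149, 95% interval -0.78 to -0.15), with an adjusted p of 0.0773 by edgeR. That pair of regions passed once the replicate number, which was taken to pair the libraries, was fitted as a block (adjusted p = 0.00296). It also passed without central replicate 4 (adjusted p = 0.0390), with a difference of -0.46. From the central to the temporal region the difference was 0.32 (SE 0.150) with an adjusted p of 0.267, and 0.0198 with the block.

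The smaller model, ANOSAT021187, was at 10.2, 9.49, 8.88, 6.67 and 8.45 CPM in the central libraries, at 24.4, 17.0, 13.7, 12.1 and 13.1 CPM in the nasal libraries and at 9.62, 15.8, 9.81, 6.74 and 12.0 CPM in the temporal libraries. Its nasal libraries lay above all central libraries, and its temporal libraries overlapped with both. It rose from the central to the nasal region by 0.88 (SE 0.227), 1.83-fold (edgeR adjusted p = 0.0108). From the nasal to the temporal region its difference was -0.57 (SE 0.225) with an adjusted p of 0.162, and 0.0336 with the block. Over the 15 libraries its log2 CPM had a Pearson correlation of 0.88 with that of ANOSAT021186, and of 0.75 after the mean of each region was taken out.

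The third model listed as EPHB2, whose identity was not settled, had another pattern. ANOSAT004086 was at 215, 205, 234, 261 and 213 CPM in the central libraries, at 228, 252, 248, 296 and 233 CPM in the nasal libraries and at 247, 277, 276, 316 and 270 CPM in the temporal libraries. Replicate 4 was the highest library of each region, and the regions overlapped. The nasal libraries were 0.16 above the central ones (edgeR adjusted p = 0.282). The temporal libraries were 0.30 (SE 0.0924, 95% interval 0.10 to 0.49) above the central ones, with an adjusted p of 0.0632, and of 0.00256 with the replicate block. Without central replicate 4 that difference was 0.35 (adjusted p = 0.0228) and without nasal replicate 4 it was 0.30 (adjusted p = 0.0476). The correlation of ANOSAT004086 with ANOSAT021186 over the 15 libraries was 0.03, and -0.54 within regions. The log2 ratio of ANOSAT021186 to ANOSAT004086, chosen after its values were seen and so given without a test, had a mean of -1.68 ± 0.384 over the central, -1.05 ± 0.362 over the nasal and -1.64 ± 0.318 over the temporal libraries (SD, n = 5 each). When the reads of the 3 models were summed, the sum was 0.35 higher in the nasal than in the central region (edgeR adjusted p = 0.00237). It was 0.31 higher in the temporal (adjusted p = 0.0131), with -0.04 between nasal and temporal (adjusted p = 0.866). ANOSAT004086 held 77518 reads of this sum, against 29173 for ANOSAT021186 and 3715 for ANOSAT021187. The sum therefore mostly follows a model whose identity was not settled. From nasal to temporal ANOSAT004086 differed by 0.14, ANOSAT021186 by -0.46 and ANOSAT021187 by -0.57.

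**Figure D1:**
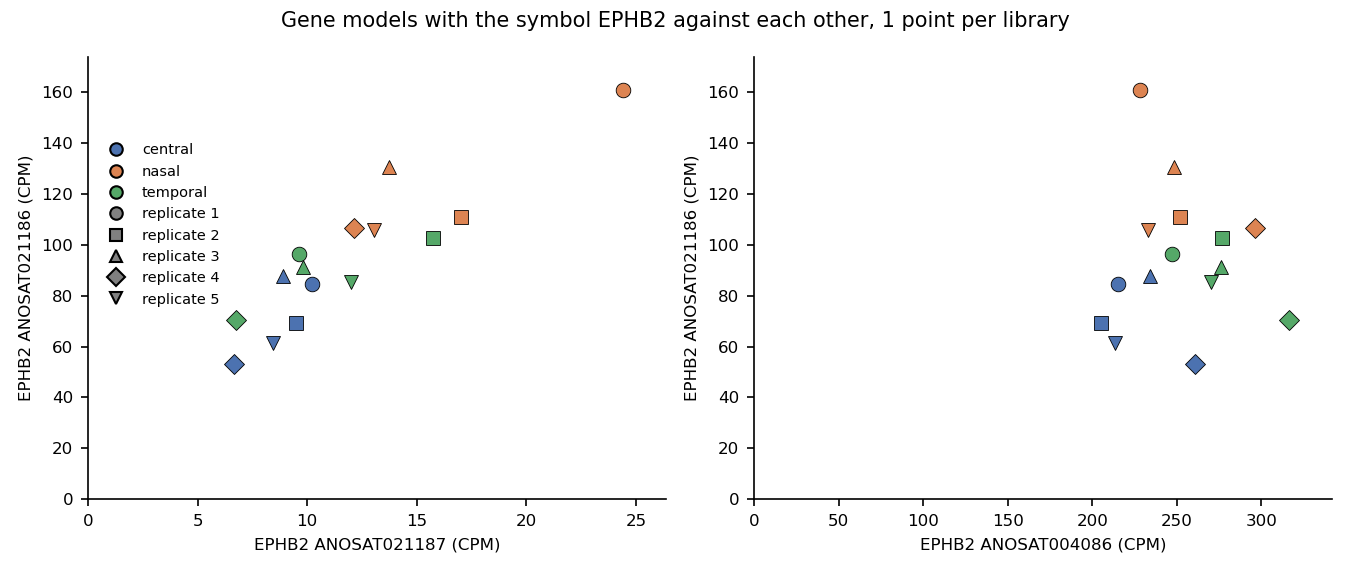
CPM of the 3 gene models listed as EPHB2, plotted against each other with a point for each library. ANOSAT021186 is on the vertical axis, against ANOSAT021187 and against ANOSAT004086. Colour gives the region and marker shape the replicate number. For ANOSAT021186 the nasal libraries (106 to 161 CPM) sit above all others, whereas for ANOSAT004086 the regions overlap and replicate 4 is highest in each.

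EPHB3, a receptor that is often found with EPHB2, was also higher in the nasal region. It was at 23.5, 21.4, 26.2, 39.4 and 20.8 CPM in the central libraries, at 58.8, 33.9, 41.5, 42.9 and 41.2 CPM in the nasal libraries and at 34.2, 30.5, 35.0, 32.6 and 29.1 CPM in the temporal libraries. Central replicate 4, at 39.4 CPM, lay inside the nasal range and was the only central library to do so. EPHB3 rose from the central to the nasal region by 0.73 (SE 0.169), 1.66-fold (edgeR adjusted p = 0.00473), and the nasal library was the higher in 5 of 5 same-numbered pairs. From the central to the temporal region the difference was 0.30 (SE 0.169) with an adjusted p of 0.406, and without central replicate 4 it was 0.49 with an adjusted p of 0.0365. From the nasal to the temporal region it was -0.44 (SE 0.168), with an adjusted p of 0.153, and of 0.0390 without central replicate 4.

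EPHB1 and EPHB4 did not pass the test in any pair of regions. EPHB1 ranged from 55.6 to 74.7 CPM over the central libraries, from 52.2 to 66.8 CPM over the nasal ones and from 66.0 to 71.95 CPM over the temporal ones, and the regions overlapped. Its difference from central was -0.01 in the nasal region (0.866- to 1.15-fold at 95%, edgeR adjusted p = 0.982) and 0.16 in the temporal region (0.969- to 1.28-fold, adjusted p = 0.454). The 5 temporal libraries varied by a coefficient of variation of 3.67%, where counting error alone gives 2.65%. EPHB4 had the fewest reads of all members, 56 to 158 a library. Its means were 4.93 ± 1.69, 5.39 ± 0.706 and 4.85 ± 1.01 CPM (SD, n = 5 each) in the central, nasal and temporal regions. The 95% interval of its nasal against central fold, 0.766 to 1.56, leaves room for changes as large as that of EFNB2.

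Among the ligands, EFNB2 was lowest in the central region and did not pass the test between the others. It was at 38.7, 38.9, 42.8, 28.1 and 38.2 CPM in the central libraries, at 49.9, 49.3, 54.1, 65.7 and 56.2 CPM in the nasal libraries and at 70.7, 58.3, 61.8, 51.9 and 48.9 CPM in the temporal libraries. Every nasal and every temporal library lay above every central library, and the nasal and temporal libraries overlapped. EFNB2 rose from the central region by 0.56 (SE 0.127), 1.47-fold, to the nasal region (edgeR adjusted p = 0.00431) and by 0.64 (SE 0.128), 1.56-fold, to the temporal region (adjusted p = 0.00365). Between the nasal and temporal regions the difference was 0.08 (SE 0.127), with a 95% interval of 0.881- to 1.27-fold (adjusted p = 0.830). The lowest central value was that of replicate 4.

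EFNB1, a ligand encoded on the X chromosome in mammals, was listed as 2 gene models that did not vary alike (Pearson correlation of 0.11 over the 15 libraries). The larger, ANOSAT019173, had means of 66.6 ± 6.71, 77.1 ± 13.0 and 80.4 ± 15.2 CPM (SD, n = 5 each) in the central, nasal and temporal regions, and the smaller, ANOSAT019172, of 13.5 ± 2.16, 15.4 ± 2.68 and 16.5 ± 4.29 CPM. All regions overlapped for both models. Their differences from central were 0.21 and 0.19 in the nasal region (edgeR adjusted p = 0.331 and 0.555) and 0.27 and 0.29 in the temporal region (adjusted p = 0.329 and 0.494). The log2 ratio of EFNB2 to ANOSAT019173 had a mean of -0.84 ± 0.318 over the central, -0.48 ± 0.125 over the nasal and -0.45 ± 0.331 over the temporal libraries (SD, n = 5 each), again without a test.

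EFNB3 was also listed as 2 gene models, each with few reads (55 to 326 a library for ANOSAT013569 and 83 to 357 for ANOSAT013570). ANOSAT013569 had means of 6.65 ± 2.02, 9.24 ± 1.92 and 9.69 ± 2.94 CPM and ANOSAT013570 of 7.76 ± 2.57, 9.30 ± 2.76 and 9.0 ± 3.52 CPM (SD, n = 5 each) in the central, nasal and temporal regions. Neither passed in any pair of regions. ANOSAT013569 differed from central by 0.47 in the nasal region (edgeR adjusted p = 0.223) and by 0.54 in the temporal region (adjusted p = 0.269). With all libraries these differences were close in size to those of EFNB2, with SEs of 0.249 and 0.250 against 0.127 and 0.128. Central replicate 4, at 3.53 CPM, was the lowest central library of ANOSAT013569. Without it the differences were 0.31 and 0.38, against 0.47 and 0.56 for EFNB2.

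**Figure D2:**
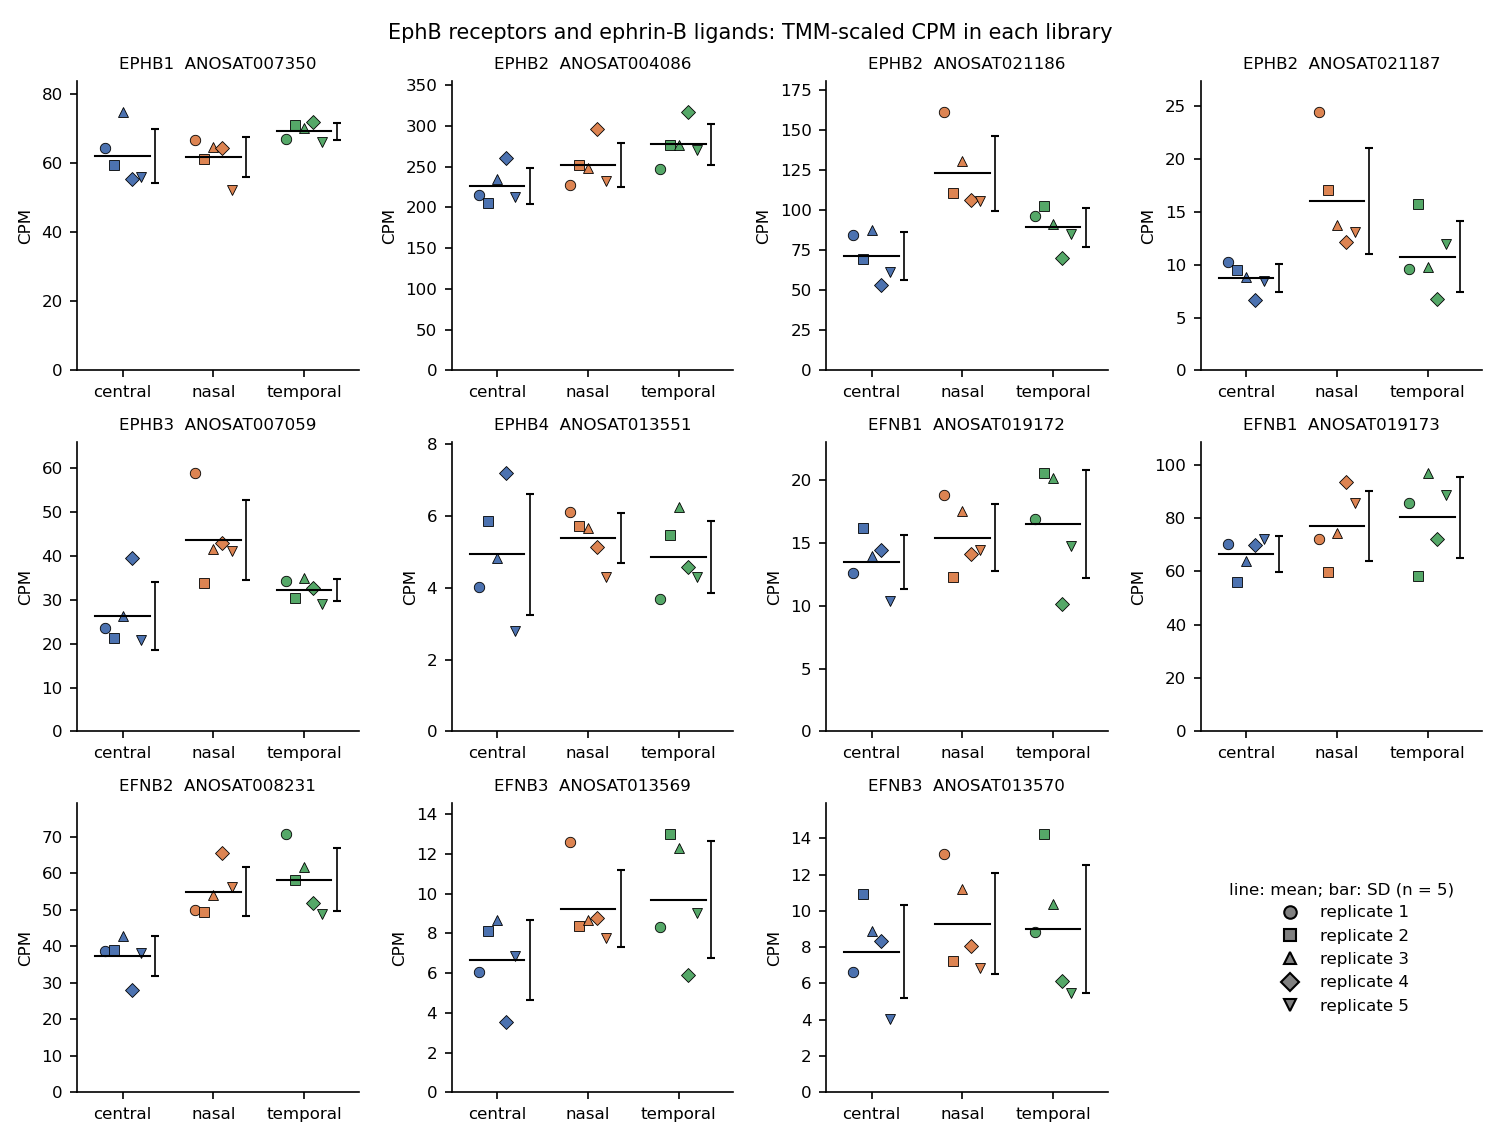
CPM of each of the 11 member gene models in the 15 libraries, by region, with the mean and SD of the 5 libraries. EFNB2 lies lowest in the central region (28.1 to 42.8 CPM), the consecutive EPHB2 models and EPHB3 are highest on average in the nasal region, and the other models overlap between regions.

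From the central to the nasal region 4 of the 11 members rose and none fell, where 7.94% of all 15910 gene models rose and 10.4% fell. They were 3 of the 6 receptor models, of 2 symbols, and 1 of the 5 ligand models. In 3 of the 11 the nasal libraries did not overlap with the central ones and lay above them, where 5.97% of all gene models did so. From the central to the temporal region 1 of 11 rose (EFNB2), where 3.24% of all gene models rose and 3.53% fell. It was also the 1 member whose temporal libraries all lay above the central ones, as did 3.76% of all gene models. With the replicate block 3 rose, against 6.37% of all gene models, and the added members were ANOSAT004086 and ANOSAT021186, both listed as EPHB2. Between the nasal and temporal regions 0 of 11 passed by edgeR, where 4.4% of all gene models were higher and 2.19% lower in the temporal region. In that pair 3 members had an unadjusted p under 0.05 (17.8% of all gene models), and the temporal libraries of 1, ANOSAT021186, lay below all nasal ones (3.43%). DESeq2 and limma-voom each called ANOSAT021186 lower in the temporal region, as they did 3.48% and 6.58% of all gene models. With the block the 2 consecutive EPHB2 models were lower there (5.96% of all gene models). In a joint test of any difference among the 3 regions, 4 of 11 passed, against 17.2% of all gene models, and 5 with the block, against 28.5%.

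The median difference over the 11 members was 0.26 from central to nasal, 0.30 from central to temporal and 0.06 from nasal to temporal, and over all gene models tested it was 0.03, 0.01 and -0.01. In each of the 2 comparisons with the central region, which share the 5 central libraries, 10 of the 11 members had a difference above 0. The share of all gene models above 0 was not counted. The 11 members include consecutive models that may be pieces of the same gene. The members' summed level was 495 to 575 CPM in the central, 617 to 718 CPM in the nasal and 634 to 690 CPM in the temporal libraries. Its means were 531, 668 and 658 CPM. Of these ANOSAT004086, whose identity was not settled, held 226, 252 and 277 CPM. Some 95% intervals, which are not adjusted, left out 0 in members that did not pass, among them ANOSAT004086 for temporal against central (0.10 to 0.49) and ANOSAT021186 for temporal against nasal (-0.78 to -0.15).

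**Figure D3:**
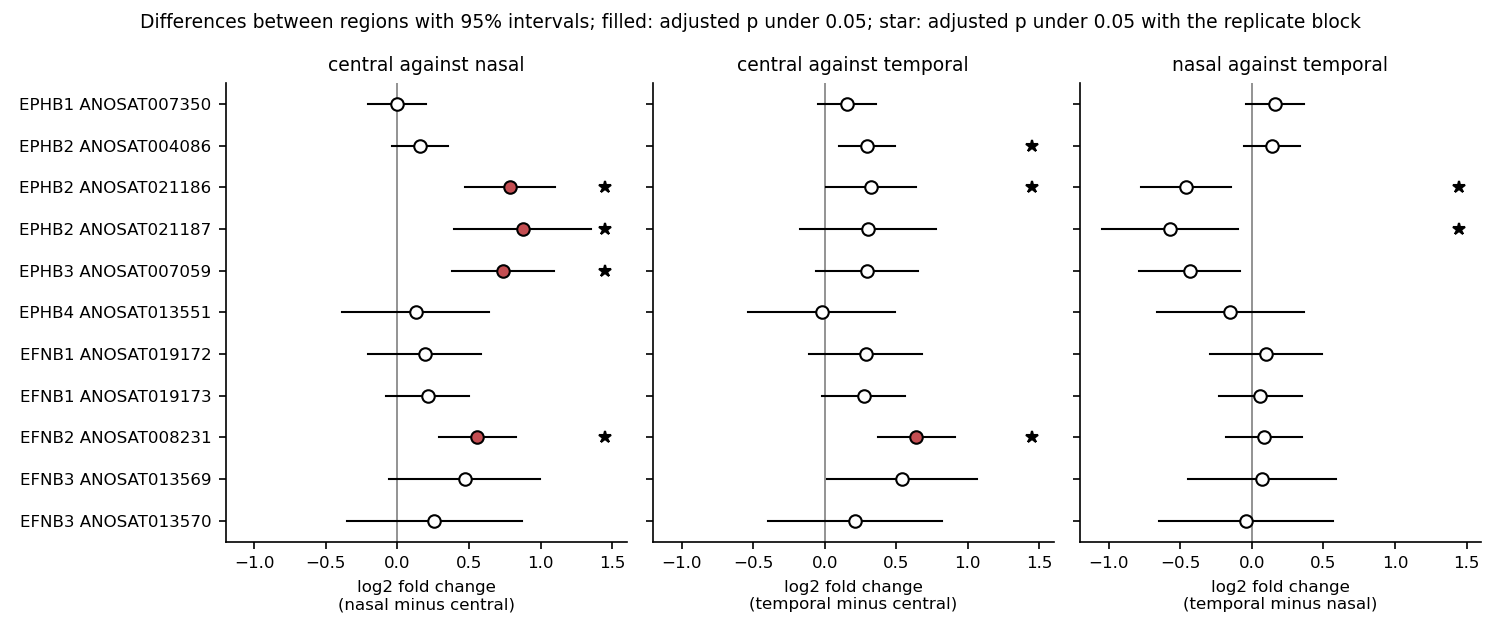
Log2 differences of the 11 member gene models in the 3 pairs of regions, as the second region minus the first, with 95% intervals from edgeR. The 4 members with an adjusted p past the threshold for nasal against central lie between 0.56 and 0.88, and EFNB2 (0.64) passes for temporal against central.

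**Figure D4:**
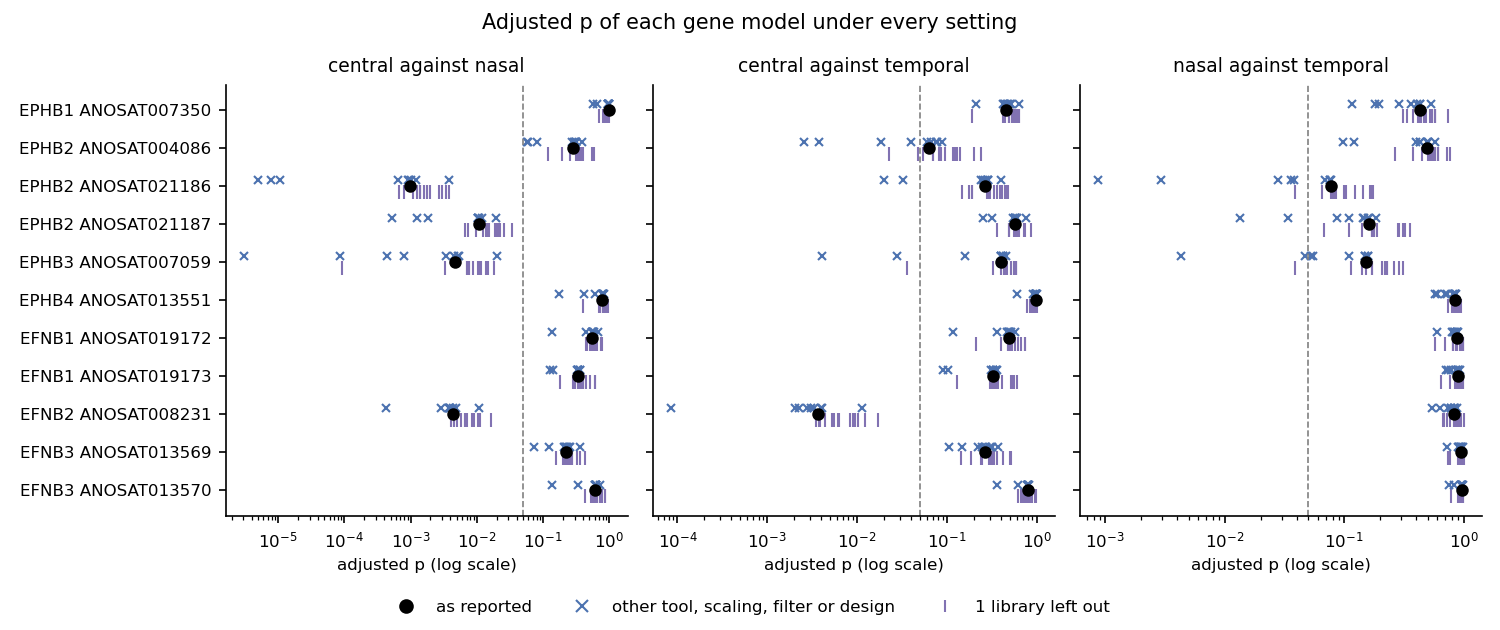
Adjusted p of the member gene models under the settings tried, for each pair of regions, with the threshold of 0.05. The 4 members that rose from central to nasal stay past it under all 24 settings. The models listed as EPHB2 and EPHB3 cross it in the other pairs under some of them.

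Markers of other cell types and progenitors moved between the same regions, and their part in the results was not tested. The 15 gene models of 10 progenitor symbols summed to 293 to 304 CPM in the central, 354 to 449 CPM in the nasal and 279 to 335 CPM in the temporal libraries, so that the nasal libraries lay above all others, as for ANOSAT021186. Of the 11 progenitor models tested, 5 rose from central to nasal and 1 fell. RAX, an eye field factor, rose by 0.54 (edgeR adjusted p = 0.00712), while SOX2 fell by 0.49 (adjusted p = 0.0110). Ganglion cell genes, markers of the cells whose axons the class guides, rose in 2 and fell in 4 of 14 models from central to nasal. ISL1 rose 1.74-fold (adjusted p = 9.12e-07), and POU4F2 was lower in the nasal region, at 89.4 against 154 CPM (adjusted p = 0.000334). The ganglion cell list summed to 1377 to 2228 CPM in the central, 1312 to 1803 CPM in the nasal and 1847 to 2725 CPM in the temporal libraries.

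For EPHB4 and EFNB2, which mark vessels, the endothelial list was followed as well. From central to nasal 4 of its 16 models fell and none rose, and the median difference was -0.77. PECAM1, an adhesion molecule of endothelial cells, was at 9.61 against 3.40 CPM (edgeR adjusted p = 0.00123). The receptor FLT1 (ANOSAT008868) was at 7.83 against 3.71 CPM (adjusted p = 0.00519). The other 12 models did not pass, among them ESAM (13.7 against 16.0 CPM), VWF (8.12 against 9.37 CPM) and FLT1 model ANOSAT019568 (4.23 against 3.90 CPM). EFNB2 rose in the same pair of regions, and EPHB4 did not pass. From central to temporal 0 of the 16 passed by edgeR, with 2 at an unadjusted p under 0.05, 1 called by DESeq2, 0 by limma-voom and 0 with the block. From nasal to temporal 1 rose, and 3 passed with the block. All 14 endothelial symbols had reads, the defining factors ERG and SOX17 with 4 and 1 reads over the 15 libraries. Central replicate 4 held the highest sum of the endothelial list (363 CPM against 232 to 254 CPM in the other central libraries), of mural cells and mesenchyme (199 CPM), of cartilage and sclera (646 CPM) and of pigment epithelium (2929 CPM). It was also the highest central library for EPHB3, EPHB4 and ANOSAT004086. It was the lowest for EFNB2, EPHB1, EFNB3 model ANOSAT013569 and both consecutive EPHB2 models.

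Markers of further tissues also differed between the regions. Of 11 pigment epithelium models 2 rose and 2 fell from central to nasal, and 2 rose and 1 fell from central to temporal. With the replicate block 5 passed from central to temporal. TTR, a carrier of thyroid hormone and retinol, was at 79.3, 277 and 310.3 CPM in the central, nasal and temporal regions, and so was lowest in the central region as EFNB2 was, with rises of 3.48-fold (edgeR adjusted p = 1.12e-07) and 3.91-fold (adjusted p = 1.65e-07). The visual cycle genes RLBP1 and RPE65 fell from central to nasal, to 207 from 506 CPM (adjusted p = 3.63e-06) and to 211 from 411 CPM (adjusted p = 7.64e-05). The lens list summed to 3.97 to 5.82 CPM in the nasal libraries, below every central library (11.7 or more) and every temporal library (8.87 or more). From central to nasal 3 of 11 cartilage and sclera models and 2 of 9 mural and mesenchymal models fell and none rose. With the replicate block 5 cartilage and sclera models passed in that pair. Central replicate 4 was the highest central library for both lists, at 646 and 199 CPM. The other central libraries summed to 139 to 332 CPM for cartilage and sclera, against 214 to 337 CPM in the nasal libraries. For mural cells and mesenchyme they summed to 70.8 to 77.7 CPM, against 47.3 to 91.8 CPM. The calls of these lists without central replicate 4 are not given.

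**Figure D5:**
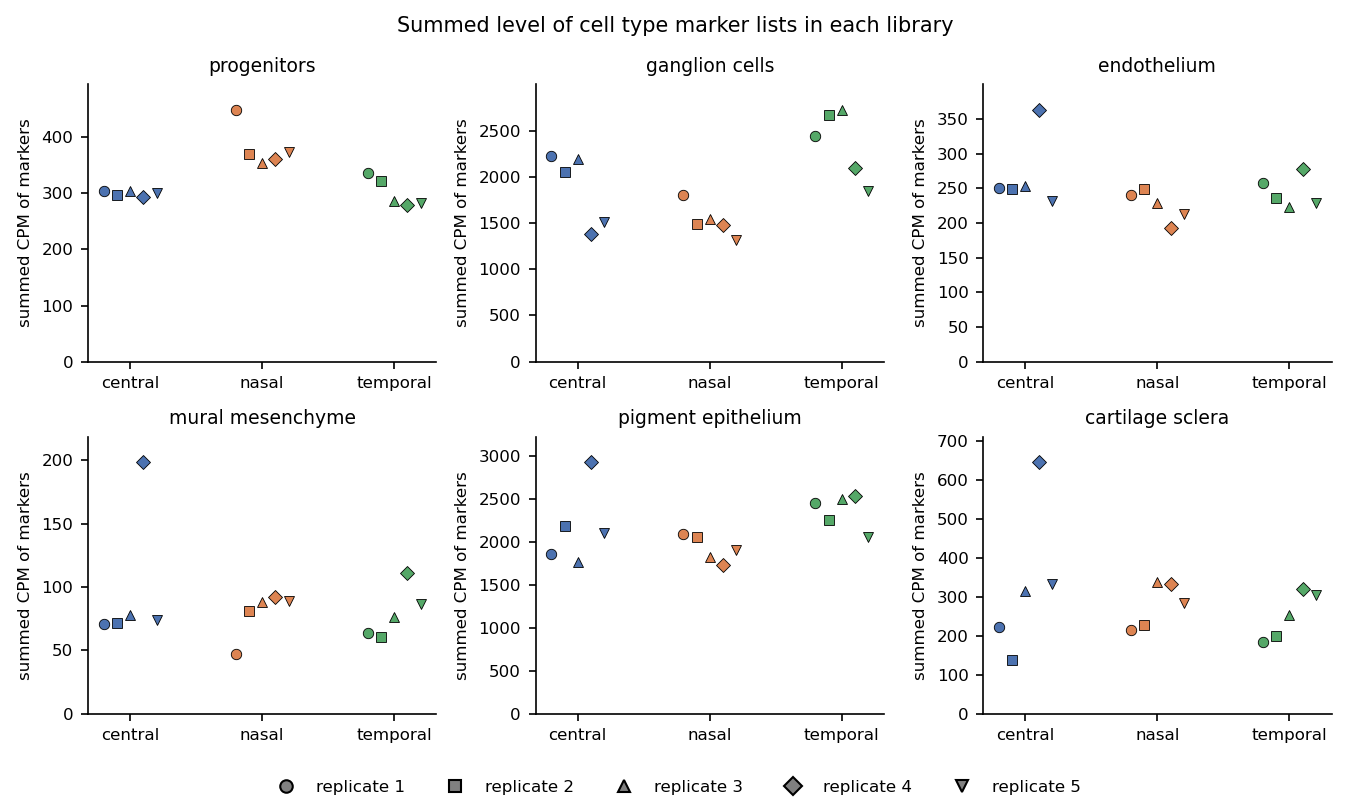
Summed CPM of marker lists of other cell types in the 15 libraries, by region. Progenitor markers are highest in the nasal libraries (354 to 449 CPM), and central replicate 4 holds the highest sums for mural cells and mesenchyme (199 CPM) and for cartilage and sclera (646 CPM).

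The A class of the family was measured in the same libraries. Of 16 EphA and ephrin-A models tested (17 found, for 13 of 14 symbols), 0 rose and 4 fell from central to nasal, 5 rose and 0 fell from central to temporal, and 8 rose and 0 fell from nasal to temporal by edgeR. EPHA3, a receptor known for its high level in temporal retina in chick, was at 39.7, 8.70 and 76.5 CPM in the central, nasal and temporal regions for ANOSAT008719, and rose 8.79-fold from nasal to temporal (adjusted p = 4.12e-10). In the same pair the largest difference of an EphB or ephrin-B model was -0.57. Among the A class genes that bind across the classes, EPHA4, which also binds ephrin-B ligands, was at 106, 91.4 and 105 CPM and did not pass in any pair by edgeR (adjusted p = 0.110, 0.988 and 0.208), with 0.0273 for central against nasal with the block. EFNA5, which also binds EphB2 in mouse, had 127 reads in all and did not pass. The symbol EPHB6 was not found in the table, and whether ANOSAT004086, listed as EPHB2, is EPHB6 was not settled.

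Genes of reverse signalling, which act inside the cell that bears the ephrin-B, included a phosphatase that differed between all 3 regions. PTPN13, which removes phosphate from ephrin-B, was at 78.1, 300.2 and 173 CPM in the central, nasal and temporal regions, and rose 3.85-fold from central to nasal (edgeR adjusted p = 5.26e-10) and 2.22-fold from central to temporal (adjusted p = 9.22e-07). CNKSR1, a scaffold protein, rose 3.17-fold to the nasal region (adjusted p = 0.00493), from 1.55 to 4.90 CPM. In all, 2 of the 16 reverse signalling models rose and 0 fell in each comparison with central. From nasal to temporal 0 rose and 1 fell, and 2 passed with the block. Of all gene models 7.94% rose from central to nasal and 3.24% from central to temporal. From nasal to temporal PTPN13 fell by 0.79 (adjusted p = 6.17e-05).

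Of the forward signalling genes, which act below the EphB receptor, 1 of 32 models rose and 2 fell from central to nasal by edgeR. In each of the other pairs 0 rose and 1 fell. Of all gene models 7.94% rose and 10.4% fell from central to nasal. From central to temporal 3.53% fell, and from nasal to temporal 2.19%. CFL1, the actin-severing cofilin, rose by 0.30 (adjusted p = 0.0117) from central to nasal. There the smaller model of the phosphatase PTPN11, ANOSAT021554, fell by 1.0 (adjusted p = 0.000804) and the proteoglycan SDC2 by 0.26 (adjusted p = 0.0444). The larger PTPN11 model, ANOSAT016986, held 9565 reads against 3320 and did not pass. Its nasal mean, 34.2 CPM, was not below its central mean of 29.1 CPM. From nasal to temporal the SRC family kinase YES1 fell by 0.36 (adjusted p = 0.0424). With the replicate block 6 of the 32 passed from central to nasal, 4 from central to temporal and 1 from nasal to temporal. The 2 symbols NCK1 and RAC1 were not found. Of the 13 models for cleavage and shedding of the proteins, PSEN2, a subunit of the gamma-secretase, rose by 0.37 (adjusted p = 0.00861) from central to nasal. The metalloprotease MMP2 fell by 1.36 in that pair (adjusted p = 0.0151). The central libraries were uneven for MMP2, at 57.3 ± 46.9 CPM against 22.3 ± 4.13 CPM in the nasal ones (mean and SD). Its difference without central replicate 4 is not given. In the other pairs 0 of 13 passed by edgeR without the block. For central against temporal 2 had an unadjusted p under 0.05, and 2 passed with the block, 0 by DESeq2 and 1 by limma-voom. For nasal against temporal 0 had an unadjusted p under 0.05, and 1 passed with the block, 0 by DESeq2 and 0 by limma-voom. With the block 4 of the 13 passed from central to nasal.

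Genes that pattern the dorsal-ventral axis, along which the class is graded in chick and mouse, also differed between these regions. From central to nasal 6 of 15 models rose and 1 fell, and from central to temporal 3 rose and 1 fell. From nasal to temporal 2 rose and 1 fell, and with the block 6 of 15 passed. By edgeR without the block, 7.94% of all gene models rose and 10.4% fell from central to nasal. From central to temporal these shares were 3.24% and 3.53%, and from nasal to temporal 4.4% and 2.19%. VAX2, a factor of the ventral retina that raises EphB2 and EphB3 when misexpressed in chick, was at 3.03, 11.1 and 5.46 CPM in the central, nasal and temporal regions and rose 3.69-fold from central to nasal (edgeR adjusted p = 0.000426). BMP2 (ANOSAT001912), a secreted factor, was highest in the central region, with 29.9 CPM against 8.97 in the nasal region (adjusted p = 3.21e-07) and 13.9 in the temporal (adjusted p = 0.000159). ALDH1A1, the dorsal enzyme of retinoic acid synthesis, rose from 10.6 CPM in the central to 23.0 in the nasal (adjusted p = 0.00872) and 38.3 in the temporal region (adjusted p = 0.000378). TBX5, a dorsal factor, was at 16.9 ± 3.14, 13.8 ± 6.25 and 24.6 ± 6.34 CPM (mean and SD) and did not pass in any pair by edgeR.

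Other cues and adhesion molecules of retinal axon mapping were taken from a list of 5 symbols with 6 models tested. RELN, a secreted glycoprotein, was at 1236, 2026 and 1660 CPM in the central, nasal and temporal regions, and rose by 0.71 to the nasal region (edgeR adjusted p = 2.26e-06) and by 0.43 to the temporal region (adjusted p = 0.00148). ALCAM, an adhesion molecule of retinal axons, was at 61.7, 31.9 and 47.5 CPM and fell by 0.95 from central to nasal (adjusted p = 2.73e-05). L1CAM, an adhesion molecule of axons, fell by 0.58 in the same pair (adjusted p = 0.0183). In all, 3 of the 6 models passed from central to nasal, 1 from central to temporal and 2 from nasal to temporal by edgeR, and 4, 2 and 4 with the block.

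The gene models most like each member that rose were sought by the Pearson correlation of log2 CPM over the 15 libraries among 11799 gene models with a symbol and at least 5 CPM. The points share the regions and the libraries, and the values are a description. For ANOSAT021186 they were SLTM (0.97), LHX9 (0.96) and DSCAML1 (0.96), with 0.92, 0.89 and 0.88 after the region means were taken out. LHX9, a LIM homeobox factor, was at 29.2, 54.0 and 36.2 CPM in the central, nasal and temporal regions. For ANOSAT021187 they were ACAP3 (0.93), TBC1D2B (0.90) and ARHGEF2 (0.90). For EPHB3 they were FBXL15 (0.94), the potassium channel gene KCNJ3 (0.92) and DPF1 (0.92). For EFNB2 they were SCD, a fatty acid desaturase (0.93), CRYM, a protein that binds thyroid hormone (0.92), and PPP2R2B, a phosphatase subunit (0.91). CRYM was at 16.6, 46.3 and 45.0 CPM in the central, nasal and temporal regions. Among the members themselves the correlation of ANOSAT021186 with EPHB3 was 0.64 over the 15 libraries and 0.03 within regions, and with EFNB2 it was 0.64 and 0.39.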

How the data were processed

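The deposited table holds whole-number read counts by gene model and symbol, which the authors left without normalization, for 15 libraries prepared with the TruSeq Stranded mRNA kit. The submitters' processing notes name HISAT2 2.2.1 and featureCounts without their role, and whether strand was used is not given in the sources read here. Reads of overlapping genes may therefore not be told apart. The table's last line is not terminated, and rows may be missing from this copy. No genome of the authors' build was used, and RefSeq's table of rAnoSag1 served for symbols and gene neighbours only (15874 gene models matched by symbol).

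Counts were fitted in R 4.3.3 with edgeR 4.0.16, after a filter with filterByExpr at a minimum count of 10, TMM scaling (factors 0.975 to 1.02) and 1 robust quasi-likelihood model of all 15 libraries, with Benjamini-Hochberg adjustment over 15910 gene models and a threshold of 0.05. All 11 members passed the filter. Differences are the second region minus the first. The SE is the log2 difference divided by the square root of F. The fit was tested on simulated data. Alternatives were RLE and upper-quartile scaling, DESeq2 1.42.0, limma-voom (limma 3.58.1, with quality weights for samples), no filter, a minimum of 50, 2 regions only, the replicate block with and without central replicate 4, gene models of a symbol summed, and each library left out in turn. Log2 CPM for correlations had a prior count of 2. Plots were made with matplotlib 3.10.9 in Python 3.11.15.

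Replicates carry the numbers 1 to 5 in each region without the labels saying what a number shares. Deviations from the region means were correlated across gene models, though these are not independent. All 15 same-numbered pairs were over 0.1 (0.193 to 0.524), against 3 of 60 other pairs, and with at least 50 reads on average 13 of 15 against 15 of 60. The numbers were taken to pair the libraries. Blocked values are given where they change the call of a member or move a count printed for a list by over 1.5 times. Libraries of a region differed beyond sampling noise (chi-square per degree of freedom 10.3 to 66.9 in 30 pairs).

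The members and lists were chosen with earlier results of these data known. Named genes are all members, up to 4 called gene models per list and pair of regions with the lowest adjusted p, EPHA4, EFNA5 and EPHB6, and the 3 gene models most correlated with each called member. TBX5, LHX9 and CRYM levels and the ratios were picked after values were seen. A gene that the naming rule selected is not reported here.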

Additional observations from a re-analysis of the deposited data

Results flagged for a closer look

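In the nasal region, EFNB3 model ANOSAT013569 had 1 library far from the others, replicate 1 at 12.6 CPM against 7.78 to 8.79 CPM in the other 4. The gap took 0.791 of the region's range, where Dixon's 95% limit for 5 libraries is 0.71. In all, 33 groups of 5 libraries were examined (11 members in 3 regions), and chance gives such a value in about 1 of 20.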

How the results depend on the processing

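The 4 members that rose from central to nasal passed in all 24 settings, with 4 called in each fit that left out a library (4 to 4). When gene models were summed, with ANOSAT004086 counted under EPHB2 here and below, 3 of 7 symbols passed. From central to temporal the count of 1 became 2 with DESeq2, 3 with limma-voom, 3 with the replicate block, 4 with the replicate block without central replicate 4 and 2 with summed gene models (of 7 symbols), and 1 to 3 with a library left out (3 without central replicate 4, 2 without nasal replicate 4). From nasal to temporal the count of 0 became 1 with DESeq2, 1 with limma-voom, 2 with 2 regions only, 2 with the replicate block, 3 with the replicate block without central replicate 4, and 0 to 2 with a library left out (2 without central replicate 4). The joint test of the regions gave 4, 5 with the block and 3 to 5 with a library left out, where ANOSAT021187 did not pass without nasal replicate 1 (adjusted p = 0.0836) or nasal replicate 2 (adjusted p = 0.062) by edgeR. The share of all gene models called moved too. Rises from central to temporal went from 3.24% to 6.37% with the block. Falls from nasal to temporal went from 2.19% to 3.48% with DESeq2, 6.58% with limma-voom and 5.96% with the block. In the joint test the share went from 17.2% to 28.5% with the block. For the other settings the share is not given. Why the counts and shares moved was not tested. Differences that changed sign passed under no setting. They were EPHB1 from central to nasal (0.0034 with no filter, -0.042 to 0.066 with a library left out), EPHB4 from central to nasal (-0.022 to 0.30) and to temporal (0.065 with limma-voom, 0.013 with the block, 0.19 with the block without central replicate 4, -0.17 to 0.15 with a library left out), and ANOSAT013570 of EFNB3 from central to temporal (-0.013 to 0.35). From nasal to temporal they were summed EPHB2 (-0.038, against 0.14 for ANOSAT004086), ANOSAT019173 (-0.0203 to 0.17), EFNB2 (-6.4e-05 to 0.15), ANOSAT013569 (-0.0497 to 0.21) and ANOSAT013570 (0.034 with limma-voom, 0.024 summed, -0.27 to 0.11 with a library left out). The replicate block changed no call of a member beyond those given. EPHB4 and EFNB3 had as few as 55 reads in a library, and the spread between their libraries was wider than counting error, with a coefficient of variation of 34.2% for EPHB4 in the central region where counting error gives 10.1%.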
